A study of Mus musculus with 2 samples.

Results

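The cells described here are the neurosphere cells whose deposited cell-cycle position lay between 0 and 0.25π, the first arc of a cycle that runs from 0 to 2π. The position is a polar angle that the authors computed from the first 2 principal components of cell-cycle genes. Per the paper, the 2 cultures were integrated with each other before that step. The arc held 1512 of 12805 cells (11.81%), with 670 of 5748 in culture 1 (11.7%, exact 95% binomial interval 10.8% to 12.5%) and 842 of 7057 in culture 2 (11.9%, 11.2% to 12.7%). It was set against the preceding arc, from 1.75π to 2π, with 1789 and 3149 cells, and against the following arc, from 0.25π to 0.5π, with 375 and 408 cells. The cells were selected on measured values, because the position is computed from the expression of the same cells. Differences in gene expression between arcs are therefore a description, and no test of them is given.

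Neurospheres are cultured balls of dividing neural progenitors, kept in suspension. These came from wild-type C57BL/6 mouse embryos at embryonic day 14.5, from the dorsal telencephalon, were kept in medium with EGF and bFGF at 10 ng/ml each, and were profiled by droplet single-cell RNA-seq. There were 2 replicate cultures of 1 condition, and the labels do not say whether they came from separate animals. Total UMIs per cell in the arc had a median of 17834 in culture 1 and 14776 in culture 2. The cultures shared 48 cell barcodes, and 4 cells of the arc carried one of them.

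In G1, mitogens act through cyclin D and its kinases, which phosphorylate the retinoblastoma protein and release E2F transcription factors. E2F then drives cyclin E and the genes of DNA replication, and the cell passes the restriction point, after which it no longer needs mitogen to divide. The inhibitor p21 (*Cdkn1a*) and the INK4 proteins (*Cdkn2a*, *Cdkn2b*) hold this step back. Neural progenitors of the developing cortex are known for the lengthening of their G1 as neurogenesis proceeds.

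The working name of these cells, late G1 before the restriction point, rests on cyclin D1, cyclin E1 and the helicase subunit Mcm6, and these 3 markers did not all set the arc apart. Expression is given as the mean over cells of log2(value + 1), where the value is the authors' depth-normalised expression. *Ccnd1* (ENSMUSG00000070348, chromosome 7: 144929931 to 144939925, minus strand, GRCm38), which encodes cyclin D1, had a mean of 4.01 in the arc in culture 1, against 4.05 before it and 4.24 after it. In culture 2 it was 4.25, against 4.10 and 4.17. *Ccnd1* was thus between 3.63 and 4.25 in all 8 arcs of the cycle, and its highest arc was the following one in culture 1 and this one in culture 2. *Ccne1* (chromosome 7: 38097984 to 38107534, minus strand) encodes cyclin E1, the partner of Cdk2 at S-phase entry. Its means in the preceding arc, the arc and the following arc were 0.13, 0.32 and 0.69 in culture 1 and 0.11, 0.37 and 0.79 in culture 2. *Mcm6* (chromosome 1: 128331590 to 128359664, minus strand) was at 0.16, 0.54 and 1.19 in culture 1 and at 0.13, 0.53 and 1.03 in culture 2. The arc was thus intermediate for *Ccne1* and *Mcm6*, whose highest arcs came later, and it is called here by its position. *Ccne1* was highest at 0.75π to 1π (0.996 and 0.98) and *Mcm6* at 0.5π to 0.75π (1.54 and 1.48).

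**Figure D1:**
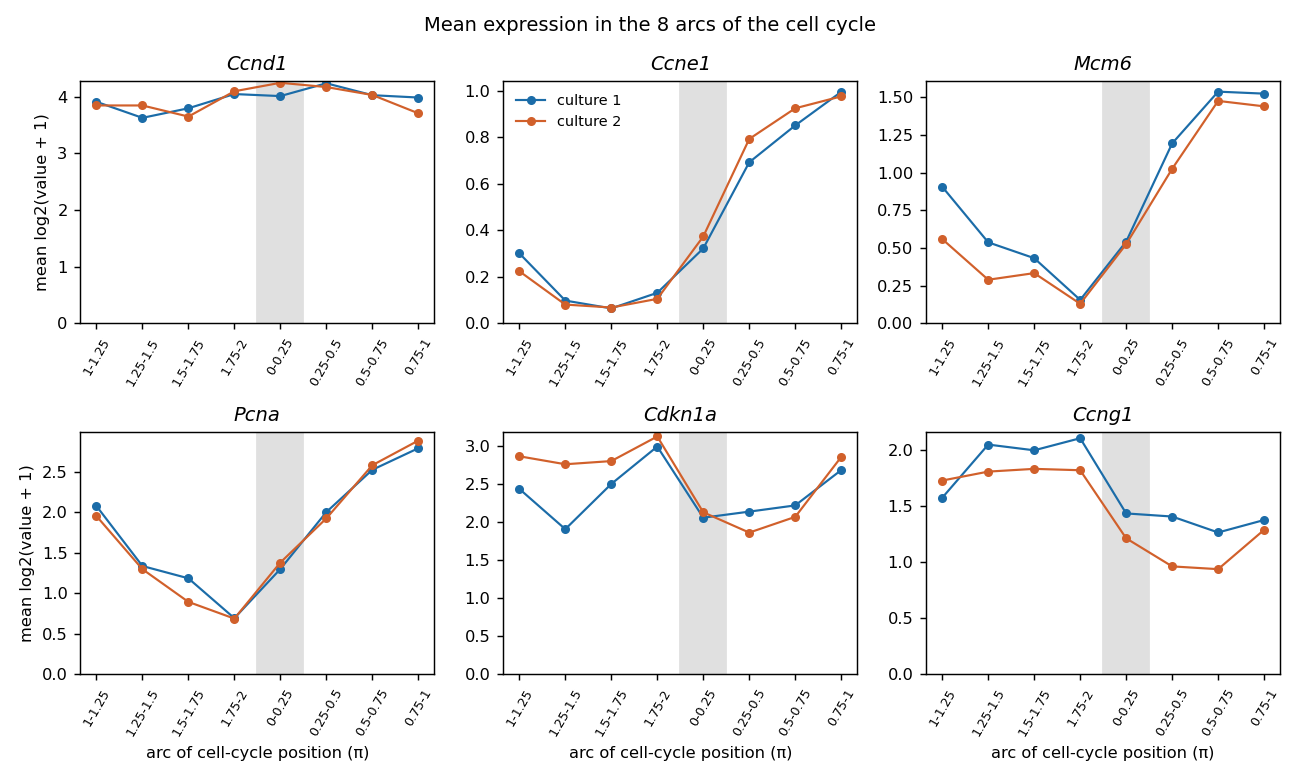
Mean log2(value + 1) over cells (vertical axis) in the 8 arcs of 0.25π (horizontal axis, in units of π), for each culture, with the arc from 0 to 0.25π shaded. *Ccne1*, *Mcm6* and *Pcna* climb through the shaded arc towards maxima between 0.5π and 1π, *Ccnd1* stays between 3.63 and 4.25, and *Cdkn1a* and *Ccng1* are lower than in the arc before it.

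Single cells of the arc differed in these markers, as did those of the neighbouring arcs. The standard deviation of *Mcm6* was 0.65 and 0.78 in the arc, 0.36 and 0.43 before it and 0.75 and 0.96 after it. *Ccnd1* had a value above 0 in 98.5% of the arc's cells in culture 1 and in 99.9% in culture 2. *Mcm6* did so in 47.5% (exact interval 43.6% to 51.3%) and 33.6% (30.4% to 36.9%), against 17.4% and 8.73% in the preceding arc and 84.5% and 59.3% in the following arc. *Ccne1* did so in 31.8% and 26.5%, against 14.8% and 7.75% before. No cell type that should lack these genes is given for these cultures, so the preceding arc, with median UMIs of 18437 and 13991, is the nearest background. Both *Ccne1* and *Mcm6* were above 0 in 17.2% and 10.7% of the arc's cells, and neither was in 37.9% and 50.6%. With the neighbours weighted to the arc's distribution of total UMIs, the difference of *Mcm6* from the preceding arc was 0.39, the same to 2 decimals as without weights. Some genes lower than before moved more under these weights, with values given further on. Intervals cover counting error only.

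The stage calls deposited with the cells divided the arc. They are computed from the expression of the same cells, as the position is, so they are not an independent reading of it. Seurat called 571 of 670 cells G1 (85.2%) and 99 S (14.8%) in culture 1, and 679 of 842 G1 (80.6%), 161 S (19.1%) and 2 G2M in culture 2. In the preceding arc 99.9% and 99.3% were G1, and in the following arc 93.3% and 93.9% were S. The border between G1 and S by these calls therefore ran mostly through the arc's later cells and the start of the following arc. The 5-stage method called 22.5% and 33.6% of the arc's cells G1.S and 20.9% and 15.9% M.G1, and left 44.2% and 41.1% without a stage. It called 0.559% and 2.57% of the preceding arc and 71.7% and 72.5% of the following arc G1.S. Cyclone called 670 of 670 and 841 of 842 of the arc's cells G1, but it did so for every cell of both neighbouring arcs too and did not divide them.

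**Figure D2:**
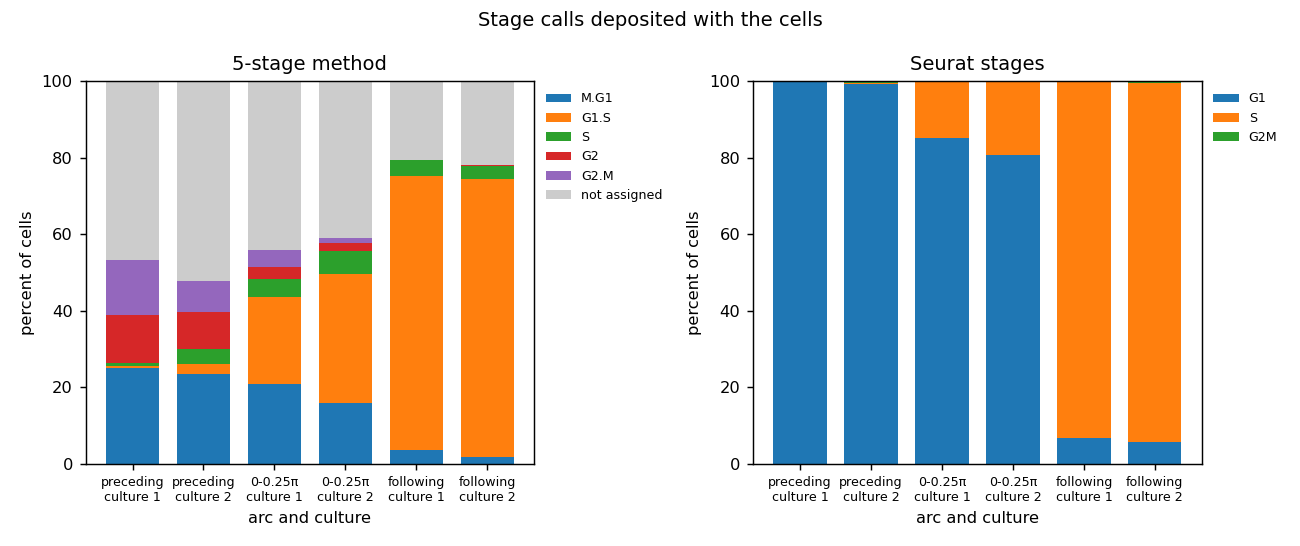
Percent of cells (vertical axis) given each stage by the 5-stage method (left) and by Seurat (right), in the preceding arc, the arc from 0 to 0.25π and the following arc, for each culture. The arc is 14.8% and 19.1% S by Seurat, between neighbours that are nearly all G1 and nearly all S, and 44.2% and 41.1% of its cells have no stage by the 5-stage method.

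A gene was counted as higher or lower where its mean log2(value + 1) differed from that of the other arc by at least 0.2 in the same direction in each culture. By this rule 47 of 10666 genes (0.441%) were higher than in the preceding arc and 21 (0.197%) were lower. In culture 1 alone the counts were 85 and 85, and in culture 2 alone 83 and 26. Of the 47 genes, 44 were also lower than in the following arc, so their level in the arc lay between those of its neighbours. The 12 largest by the smaller of both cultures' differences were *Pcna*, *Tipin*, *Dek*, *Nasp*, *Mcm3*, *Ezh2*, *Mcm6*, *Hells*, *Hmgb2*, *Mcm2*, *Srsf7* and *Rpa2*. The remaining 3 did not pass the rule against the following arc. These were *Ccnd3* (cyclin D3), *Tfdp1* (the dimerisation partner of E2F) and *Gria2* (a glutamate receptor subunit), and they are named because they are the whole of that count. Against the following arc *Tfdp1* differed by -0.16 and -0.21, *Ccnd3* by -0.06 and -0.03 and *Gria2* by 0.16 and 0.0031.

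The group with the largest share of members past this rule was the MCM helicase, the ring of 6 subunits that is loaded at replication origins in G1 and unwinds DNA in S phase. All 6 of its genes were higher than in the preceding arc and all 6 were lower than in the following arc, where 0.441% and 1.29% of all genes were. Their median differences were 0.34 and -0.55 as means of the cultures, where the medians over all 10666 genes were 0.0031 and -0.0015. *Mcm3* was at 0.13, 0.56 and 1.29 in the 3 successive arcs of culture 1 and at 0.07, 0.49 and 1.302 in culture 2. The smallest differences from the preceding arc among the 6 were those of *Mcm4*, 0.28 and 0.22. On the linear scale, the mean value of *Mcm6* was 3.98 times and 4.31 times that of the preceding arc, and 0.388 times and 0.459 times that of the following arc. A mean of 2.73 of the 6 genes was detected per cell of the arc in culture 1 and 1.80 in culture 2, against 1.01 and 0.517 before and 4.74 and 3.40 after. At least 3 of the 6 were detected in 53.9% and 27.9% of the arc's cells, and none was in 8.96% and 16.3%. The arc thus held cells with every number of detected subunits in both cultures, as did the preceding arc of culture 1 and the following arc of culture 2. Culture 1 was the deeper culture and had the higher numbers in each arc, and the part of depth in this was not tested.

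**Figure D3:**
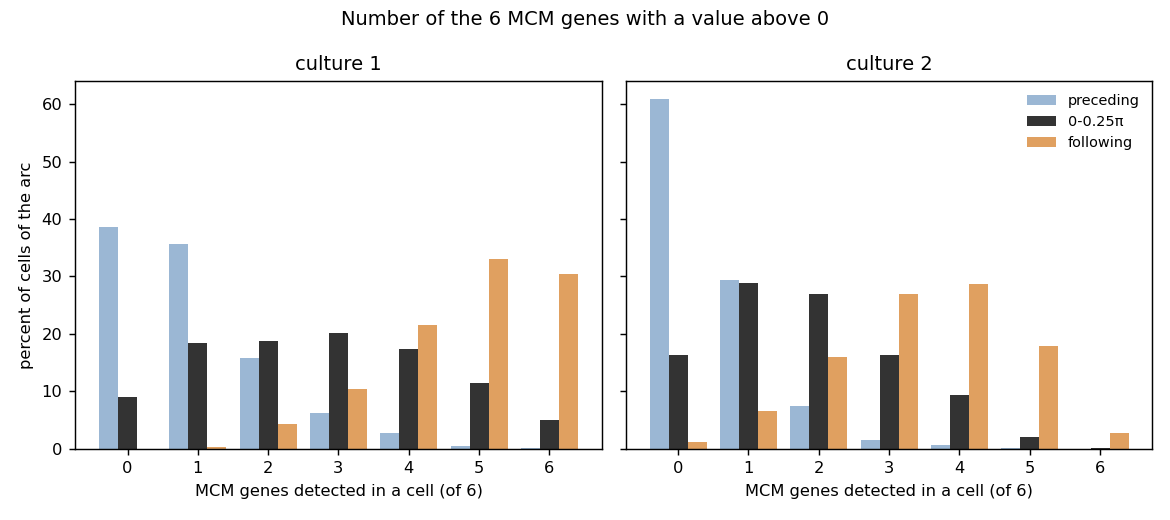
Percent of cells of an arc (vertical axis) by the number of the 6 MCM genes with a value above 0 in the cell (horizontal axis), in the preceding arc, the arc from 0 to 0.25π and the following arc. The arc is broad and lies between its neighbours, with a mean of 2.73 genes per cell in culture 1 and 1.80 in culture 2.

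E2F binds promoters at a short consensus, so promoter windows from 250 bases before to 50 after the transcription start (RefSeq, GRCm38.p6) were searched on both strands for TTTCGCGC, TTTGGCGC, TTTCCCGC and TTTGCCGC. Matches on opposite strands may overlap. Of the 47 genes higher than in the preceding arc 43 had a window, and 19 of these (44.2%) held a match. Among the genes of the expression table the share was 421 of 8318 (5.06%), and among all genes with a window it was 704 of 27025 (2.6%). Of the genes lower than in the preceding arc, 2 of 19 held one (*Cdkn2a* and *Pdgfa*). Among the MCM genes 4 of 5 did, and among the genes lower than in the following arc 41 of 119 did (34.45%). The sets of higher and lower genes were picked along a position that comes from cell-cycle genes of the same cells. A larger share of matches in them is therefore partly built in, and no test of it is given. The stretches below are shown because they belong to *Mcm6*, to further MCM genes, to the chromatin remodeller *Hells* and to *Cdc6*, which loads the MCM ring. Each lies upstream of the start, reads 5′ to 3′ on the strand of its gene, and has the matched letters in capitals.
Mcm6 (chr1:128359792-128359831, minus strand): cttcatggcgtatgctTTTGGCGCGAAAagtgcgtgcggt
Mcm5 (chr8:75109340-75109383, plus strand): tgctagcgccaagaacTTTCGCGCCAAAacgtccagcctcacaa
Mcm7 (chr5:138172025-138172064, minus strand): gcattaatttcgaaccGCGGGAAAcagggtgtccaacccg
Hells (chr19:38930912-38930951, plus strand): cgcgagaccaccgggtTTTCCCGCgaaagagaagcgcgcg
Cdc6 (chr11:98907997-98908036, plus strand): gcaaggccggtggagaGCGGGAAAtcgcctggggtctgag
In *Mcm6* and *Mcm5* matches on opposite strands overlap, which gives the longer run of capitals, and the first of them begins 110 and 153 bases before the start. The windows of *Ccne1*, *Pcna*, *Dek*, *Nasp*, *Mcm2*, *Hmgb2*, *Srsf7*, *Rpa2*, *Rrm2*, *Ung*, *Hat1*, *E2f1* and *Cdkn1a* held no match of these letters. A match describes the sequence and does not show binding.

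A smaller share of the other replication genes passed the rule against the preceding arc. Over all genes 0.441% were higher than before and 1.29% were lower than after. Of 8 measured genes for origin recognition and loading, 1 was higher than in the preceding arc and 3 were lower than in the following arc. The 1 was *Orc6* (0.69 to 0.96 and 0.62 to 0.92), a subunit of the origin recognition complex. *Cdc6* was low in absolute terms in the arc, at 0.13 and 0.09, but its linear mean was 12.2 times and 10.5 times that of the preceding arc, where it was detected in 1.4% of cells in culture 1. Of 13 genes of origin firing and fork protection, 2 were higher than before, *Tipin* and *Gins2*. *Tipin*, which stabilises stalled forks with Timeless, went from 0.40 to 1.01 and from 0.45 to 1.24, the largest difference above the preceding arc of any gene as a mean of the cultures.

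At the replication fork 5 of 21 genes were higher than in the preceding arc and 12 were lower than in the following arc. Of all genes 0.441% and 1.29% were. All 21 lay above the preceding arc and below the following arc in both cultures by any amount, against 4132 and 3618 of all 10666 genes. The 5 were *Pcna*, the sliding clamp, *Rfc3*, a subunit of its loader, *Rpa2*, which coats single-stranded DNA, *Lig1*, which joins Okazaki fragments, and *Pclaf*, a partner of the clamp. *Pcna* was at 0.69, 1.2997 and 2.004 in the successive arcs of culture 1 and at 0.69, 1.38 and 1.93 in culture 2. *Pclaf* differed most from the following arc of all genes, at 0.63 against 1.95 and at 0.83 against 2.21. The catalytic subunits of the replicative polymerases were below the rule, with *Pola1* at 0.15 and 0.13 in the arc.

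Deoxynucleotide synthesis followed with 3 of 7 genes higher than in the preceding arc and 6 of 7 lower than in the following arc. The shares of all genes were 0.441% and 1.29%. *Rrm2*, the regulated subunit of ribonucleotide reductase, was at 0.36, 0.62 and 1.76 in culture 1 and at 0.36, 0.69 and 1.60 in culture 2. *Dut* and *Rrm1* were the others above the preceding arc. *Tk1*, thymidine kinase, was at 0.10 and 0.11 in the arc, against 0.39 and 0.46 after it. Among genes that copy chromatin 4 of 9 were higher than before and 9 of 9 lower than after. *Hells* had the steepest difference from the following arc among them, at 0.45 against 1.36 and at 0.49 against 1.56. *Nasp*, a histone chaperone, *Dek*, a chromatin protein, and *Dnmt1*, the maintenance methyltransferase, were the others.

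How far each group had climbed was read as the percent of the distance from the preceding arc to the gene's highest arc. The median over the 6 MCM genes was 28.3% in culture 1 and 28.5% in culture 2, and by the following arc it was 72.4% and 66.4%. For deoxynucleotide synthesis (7 genes) it was 14.4% and 14.1%. For the replication fork (19 genes with a clear climb) it was 17.5% and 17.7%, and for chromatin duplication (9 genes) 22.6% and 18.8%. The MCM genes thus had the highest medians of these 4 groups in both cultures, although single genes, as means of the cultures, ranged from 21.7% to 34.7% in the MCM group and from 9.45% to 30.2% at the fork.

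Among the regulators of the restriction point, cyclin E and *E2f1* lay between the levels of the neighbouring arcs. Of 4 measured genes of cyclin E, its kinase and *Cdc25a* none was higher than before by the rule, where 0.441% of all genes were. All 4 lay above the preceding arc in both cultures by any amount, as did 4132 of all 10666 genes. Against the following arc 3 were lower (*Ccne1*, *Ccne2* and *Cdk2*), where 1.29% of all genes were. The linear mean of *Ccne1* was 2.63 times and 3.72 times that of the preceding arc. *Ccne1* passed 0.2 in culture 2 (0.27) and just missed it in culture 1 (0.19). *E2f1* was at 0.05, 0.15 and 0.44 in culture 1 and at 0.07, 0.22 and 0.66 in culture 2. Of 18 RB, E2F and DREAM genes 1 was higher than in the preceding arc, *Tfdp1* (0.56 to 0.81 and 0.53 to 0.77), while 16 lay above it in both cultures by any amount, as did 4132 of all 10666 genes. *Rb1* was at 0.09 and 0.11 in the arc and differed from the preceding arc by less than 0.01 in both cultures. Of the D-type cyclins *Ccnd3* was higher than before, at 0.95 against 0.71 and at 1.06 against 0.81. *Ccnd2* was abundant, with 4.35 and 4.67 in the arc against 4.61 and 4.66 before it. *Cdk4* was not analysed here.

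Several inhibitors were lower. *Cdkn1a* (chromosome 17: 29090976 to 29100727, plus strand), which encodes p21, had the largest difference below the preceding arc of all genes. It was at 2.06 in the arc of culture 1 against 2.99 before and 2.14 after, and at 2.13 in culture 2 against 3.12 and 1.86. Its linear mean was 0.479 times and 0.434 times that of the preceding arc. Of 6 measured CDK inhibitors 3 were lower than before and none was higher, where 0.197% and 0.441% of all genes were. The others were *Cdkn2a* (0.91 to 0.62 and 0.91 to 0.59) and *Cdkn2b* (0.68 to 0.35 and 0.67 to 0.37), which lie side by side on chromosome 4, where *Cdkn2a* also encodes ARF. *Cdkn1b*, which encodes p27, was at 0.39 and 0.36 in the arc and at 0.37 and 0.36 before it.

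The transcript of p21 is a target of p53, and other p53 targets were lower with it. Of 10 measured targets 4 were lower than in the preceding arc by the rule, *Cdkn1a*, *Ccng1*, *Sesn2* and *Bax*, where 0.197% of all genes were. All 10 lay below the preceding arc in both cultures by any amount, as did 2436 of all 10666 genes. *Ccng1*, which encodes cyclin G1, went from 2.10 to 1.43 and from 1.82 to 1.21. *Bax*, which promotes apoptosis, went from 3.73 to 3.51 and from 3.803 to 3.57. None of the 10 was higher or lower than in the following arc by the rule. *Rps27l*, the 1 of 58 cytosolic ribosomal protein genes lower than in the preceding arc by the rule, is also known as a p53 target (4.91 to 4.62 and 5.001 to 4.78).

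The other genes among the 12 furthest below the preceding arc were these. *S100a10* and *S100a11*, small calcium-binding proteins, went from 3.84 to 3.22 and from 2.43 to 1.82 in culture 1, and from 4.19 to 3.82 and from 2.50 to 2.14 in culture 2. *Pdgfa*, a growth factor ligand, went from 0.83 to 0.56 and from 0.95 to 0.57. *Clic1*, *9530053A07Rik*, *Psrc1*, *Ociad2* and *Thyn1* complete the 12 largest, with the smaller of both differences from -0.24 (*Thyn1*) to -0.33 (*Clic1*). With the neighbours weighted to the arc's total UMIs, 18 of the 21 lower genes stayed. As means of the cultures, *S100a10* was then at -0.41 against -0.50 without weights, and *S100a11* at -0.42 against -0.48. *Clic1* was at -0.33 against -0.37, while *Pdgfa* was at -0.35 against -0.33. Of the 21 lower genes 10 were lower still in the following arc in both cultures, and 3 were higher there in both. No gene was both lower than in the preceding arc and higher than in the following arc by the rule.

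**Figure D4:**
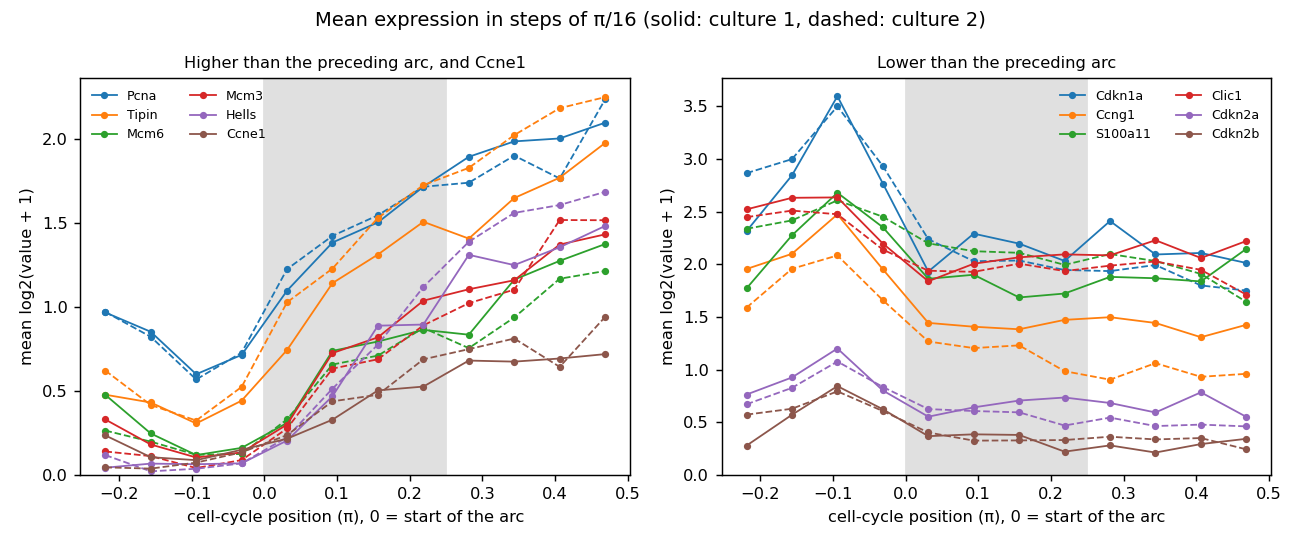
Mean log2(value + 1) over cells (vertical axis) in 12 steps of 0.0625π from 1.75π to 0.5π (horizontal axis, position in units of π with 0 at the start of the arc, which is shaded; solid lines culture 1, dashed lines culture 2). The genes on the left are higher in the last shaded step than in the first in both cultures, and those on the right are lower in the first shaded step than from 1.875π to 1.9375π.

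The arc was also read in steps of 0.0625π. *Mcm6* was at 0.12 in both cultures from 1.875π to 1.9375π, at 0.31 and 0.33 in the first step of the arc and at 0.86 and 0.88 in its last step. *Cdkn1a* was at 3.60 and 3.50 from 1.875π to 1.9375π, at 2.77 and 2.93 in the last step before the arc and at 1.93 and 2.24 in the first step within it. It then stayed between 1.93 and 2.29 through the 4 steps of the arc in both cultures. *Ccng1* went from 2.47 and 2.08 down to 1.44 and 1.27 in the first step, and was at 1.47 and 0.98 in the last, so in culture 2 it was lower again at the end of the arc. *Hells* was at 0.20 and 0.22 in the first step and 0.90 and 1.12 in the last. The share called S by Seurat went from 0.87% and 2.28% in the first step to 51.6% and 66.4% in the last.

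The cells were not spread evenly over these steps. The first held 345 and 439 cells and the last 93 and 119, and the last step before the arc held 1209 and 1839. Just inside the lower border, within 0.02π of it, *Ccnd1*, *Ccne1* and *Mcm6* were at 3.85, 0.21 and 0.24 in culture 1 and at 4.27, 0.26 and 0.25 in culture 2. Just outside it they were at 3.75, 0.20 and 0.21, and at 4.09, 0.18 and 0.20. Just inside the upper border they were at 4.15, 0.43 and 0.91, and at 4.44, 0.61 and 0.84. Just outside it they were at 4.03, 0.57 and 0.96, and at 4.33, 0.79 and 0.55, on 25 and 35 cells. Moving both borders by 0.05π later gave 102 genes higher than in the arc before, and moving them earlier gave 4, with 28.51% of cells then in the arc as a mean of the cultures.

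Compared with the following arc the contrast was larger and nearly all in 1 direction. There 138 genes (1.29%) were lower in the arc and 2 (0.0188%) were higher, among them *Tsc22d1*. The 12 most below the following arc were *Pclaf*, *Hmgb2*, *Rrm2*, *Hells*, *Dek*, *Mcm3*, *Tipin*, *Nasp*, *Ung*, *Usp1*, *Rpa2* and *Hat1*. *Ung* (0.40 against 1.07 and 0.46 against 1.32) removes uracil from DNA, and *Hat1* (0.77 against 1.34 and 0.76 against 1.44) acetylates new histone H4. *Tsc22d1*, a transcriptional regulator, was at 1.80 against 1.43 and at 1.51 against 1.24, and its highest arc was the preceding one. With cells under 10000 UMIs left out, an alternative chosen after seeing the data, 1 of these 2 calls was kept. *Mxd4*, an antagonist of MYC, came next at 0.97 against 0.69 and 0.96 against 0.76, the smaller difference just under 0.2.

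**Figure D5:**
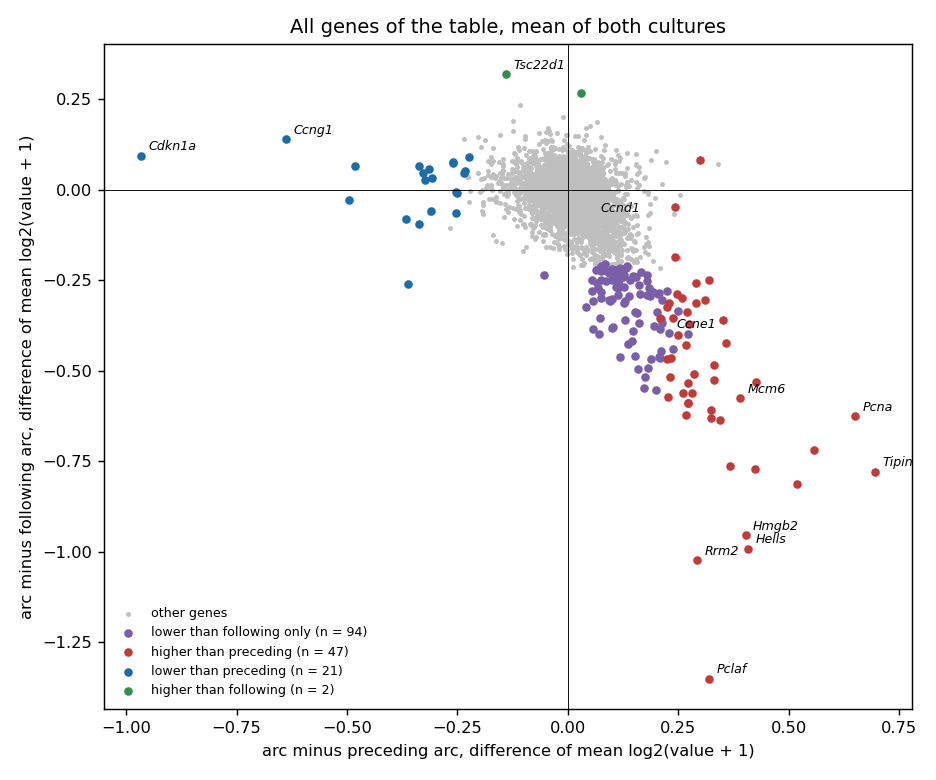
Each point is a gene, by the difference of mean log2(value + 1) between the arc and the preceding arc (horizontal axis) and between the arc and the following arc (vertical axis), as means of both cultures; colours mark genes past 0.2 in each culture. The 47 genes higher than before lie at the lower right, nearly all below the following arc, the 21 lower than before lie at the left near 0 on the vertical axis, and the upper right is nearly empty.

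Few genes were highest in the arc itself. Of 10666 genes, 18 (0.169%) had their highest mean of the 8 arcs here in both cultures with a range of at least 0.2 over the arcs. Of these, 9 remained with the neighbours weighted to the arc's total UMIs, 11 without cells called G2 or G2.M, and 7 and 9 with the borders 0.05π later and earlier. Their excess over the nearer neighbour was small, at most 0.08 by the smaller of both cultures. The leading gene, *Arpc1a*, a subunit of the Arp2/3 complex that branches actin, was at 1.71 and 1.66 in the arc, against 1.60 and 1.56 before and 1.57 and 1.58 after. *Synrg*, *Eif4g3*, *Snrpn*, *Ncald*, *Gsk3b*, *Chp1*, *Atxn7l3b*, *Mycbp2* and *Emc10* followed. *Gsk3b*, whose kinase marks cyclin D1 for degradation, was at 1.57 and 1.39, against 1.37 and 1.24 in the following arc. Conversely 38 genes had their lowest mean of the 8 arcs here by the same rule.

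Few growth and signalling genes passed the rule. Of all genes 0.441% were higher and 0.197% lower than before, and 1.29% were lower than after. The nucleolar genes for ribosome biogenesis had larger shares. Of these 19 genes 2 were higher than before, *Nop56* (1.183 to 1.45 and 1.05 to 1.33) and *Nop58*, and 3 were lower than after. By any amount in both cultures, 15 of the 19 lay above the preceding arc and 18 below the following arc. Over all 10666 genes these counts were 4132 and 3618. None of 10 translation initiation genes passed in either direction against either neighbour. The same held for 12 feedback targets and receptors of EGF and FGF, for 7 Notch and Id genes and for the 2 measured immediate early genes. *Dusp6*, a feedback phosphatase of ERK, was at 1.09 and 1.05 in the arc against 1.19 and 1.003 before. *Myc* was at 0.55 and 0.47 against 0.45 and 0.36. Of 17 late mitotic genes 1 was higher than before, *Hmgb2*, a chromatin protein that is also made in S phase (0.84 to 1.27 and 1.0045 to 1.38). *Ube2c* and *Cdc20*, which act at the exit from mitosis, were at 0.19 and 0.15 in culture 1 and at 0.21 and 0.10 in culture 2.

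No cell type marker passed the rule, which few of all genes did. The radial glia genes *Fabp7* (6.33 and 6.45), *Nes* (2.06 and 2.25), *Vim* (4.60 and 4.65) and *Ptprz1* (2.86 and 2.57) were abundant, and *Pax6* was low (0.16 and 0.15). None of 8 measured radial glia markers, 3 neuronal, 5 oligodendrocyte progenitor, 3 astroglial and 1 mural marker (*Cspg4*, which is also in the oligodendrocyte progenitor list) passed the rule against either neighbour. The summed value of the radial glia list was 147 in culture 1 and 152 in culture 2, against 152 and 148 before and 154 and 147 after. The neuronal list, with 3 of its 11 genes measured, summed to 2.24 and 2.09, against 1.78 and 1.72 before. Most of this was *Map2* (2.09 and 1.94, against 1.66 and 1.61 before), while *Gad1* was lower than before in both cultures. The progenitor list of the oligodendrocyte lineage summed to 9.79 and 9.04, against 9.07 and 7.87. Most of it was *Olig2*, at 6.56 and 6.17 in the arc. Of the 5 genes of that list 4 lay above the preceding arc in both cultures by any amount, as did 4132 of all 10666 genes. *Pdgfra*, a receptor of oligodendrocyte progenitors, was detected in 9.25% and 2.97% of the arc's cells, against 3.52% and 1.05% of the preceding arc's. Its linear mean was low, at 0.15 and 0.14, which is 3.41 times and 2.37 times that of the preceding arc. *Cspg4* went the other way in detection, at 9.55% and 12.6% against 9.89% and 14.5% before. *Dcx*, a neuroblast marker, was above 0 in 74 cells of the arc (8.96% in culture 1 and 1.66% in culture 2), and without such cells 48 genes were higher and 19 lower than before. Markers of microglia and erythroid cells were not analysed here.

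Total UMIs per cell, which the expression values no longer carry, had no common order over the 3 arcs in the 2 cultures. The mean log2 total UMIs of the arc minus that of the preceding arc was -0.05 in culture 1 and 0.10 in culture 2. The arc minus the following arc was -0.16 and -0.02. The means of the preceding arc, the arc and the following arc were 14.11, 14.05 and 14.21 in culture 1 and 13.77, 13.87 and 13.89 in culture 2. In the same order, 7.83%, 13.88% and 6.67% of the cells of culture 1 were under 10000 UMIs. In culture 2 these shares were 9.72%, 7.245% and 6.13%.

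Within the arc the stage classes differed as position did. Classes and position both come from the expression of cell-cycle genes in these cells, so their agreement, and that with the markers, is partly built in. In the G1.S class *Mcm6* was at 0.75 and 0.71 and *Ccne1* at 0.52 in both cultures, with a mean position of 0.14π and 0.12π. In the M.G1 class they were at 0.53 and 0.49, and at 0.21 and 0.30, with a mean position of 0.07π and 0.06π. The class called S by Seurat had *Mcm6* at 0.92 and 0.76, and its mean position was 0.18π and 0.17π. The 29 cells called G2.M in culture 1 stood apart. Their *Ccnd1* was 3.06, their *Ccnd2* 3.34 and their *S100a10* 2.02, where the G1.S class had 4.25, 4.71 and 3.51, and their mean position was 0.02π. The 11 such cells of culture 2 had 4.31, 4.90 and 4.33 and did not share this. With cells called G2 or G2.M left out of the arcs, 48 genes were higher and 16 lower than before.

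*Cdkn1a* also divided the arc, and more so in culture 1. It was at 0 in 168 of 670 cells there (25.1%) and in 65 of 842 in culture 2 (7.72%). Cells above 0 made up 74.9% and 92.3% of the arc, 89.55% and 97.1% of the preceding arc and 82.7% and 88.5% of the following arc. The split was thus not particular to the arc, and in culture 2 the following arc had the larger share at 0. In culture 1 the cells at 0 had *Ccnd2* at 3.23, *S100a10* at 2.10 and *Ccng1* at 0.84, against 4.73, 3.60 and 1.63 in the cells with *Cdkn1a*. In culture 2 the corresponding levels were 4.04, 3.42 and 0.91, against 4.72, 3.86 and 1.23. *Mcm6* differed less, at 0.50 against 0.56 and at 0.48 against 0.53. The cells at 0 had fewer UMIs, with a mean log2 of 13.59 against 14.21 and of 13.53 against 13.89, and the part of depth in these differences was not tested.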

How the data were processed

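Single-cell RNA-seq of 2 replicate neurosphere cultures was used, 5748 and 7057 cells. The authors quantified reads with Salmon 1.3.0 (alevin) and used Seurat 3.2.2, per the labels and the submitters' processing notes, and removed outlying cells before deposit, by doublet score among other measures. The expression values are a linear signal that the authors had scaled to each cell's depth (10666 genes, median sum per cell 11598 and 11399). The deposited UMI totals add up alevin's estimated counts, and the position and stages were taken as the authors gave them. Here no further doublet caller or cell filter was applied.

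Here values were transformed as log2(value + 1) and averaged over the cells of each arc in each culture. Members, lists, arcs and the threshold of 0.2 were chosen with earlier results of these data known. The named genes are the 3 markers, members of the lists, the 12 most extreme genes against each neighbour by the smaller of both cultures' differences, and the 10 with the largest excess among the genes highest in the arc. No p-value is given, because the position comes from expression of the same cells and there are 2 cultures of 1 condition. The paper describes integrating the cultures before the position was derived, so their agreement is not that of fully independent replicates. Cells could not be thinned to a fixed depth, since counts were not recovered from the values, so neighbours weighted to the arc's total UMIs stand in as an alternative. To check the arithmetic of the rule, values were permuted over the cells of each culture and known shifts were added. The rule then called 50 of 50 genes shifted by 0.3 and 0 of 1800 unshifted ones. Permutation removes the link between position and expression, so this gives no rate of false calls for the real arcs. Symbols were found for 10662 genes. The values of 1 gene that passed the rule are not reported here. Coordinates are GENCODE vM21, and promoter windows are RefSeq GRCm38.p6. Python 3.11.15, numpy 2.4.6, scipy 1.17.1 and pandas 2.3.3 were used. Alternatives were other thresholds, pseudocounts, means, scalings, borders, detection filters, cell subsets and each culture alone.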

Additional observations from a re-analysis of the deposited data

How the results depend on the processing

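The counts below are given in 1 order: higher than before, lower than before, higher than after, lower than after and highest in the arc, which were 47, 21, 2, 138 and 18. A threshold of 0.1 gave 206, 90, 36, 400 and 73, and 0.4 gave 5, 2, 0, 41 and 3. With a pseudocount of 0.5 there were 85 higher than before, 6 higher than after, 227 lower than after and 40 highest in the arc. With the log2 of the mean value there were 5 higher than after and 46 highest in the arc. Borders 0.05π later gave 102 higher than before, 88 lower than after and 7.51% of cells in the arc, against 11.79% as the mean of the cultures. Borders 0.05π earlier gave 4 higher than before, 7 higher than after, 70 highest in the arc and 28.51% of cells, and there *Pclaf* and *Rrm2* were at -0.0714 and -0.0208 against the arc before. Without cells called G2 or G2.M the share was 13.46%. Without cells under 10000 UMIs, an alternative chosen after seeing the data, 1 gene was higher than after. With either culture left out, the ranges were 83 to 85 higher than before, 26 to 85 lower than before, 9 to 14 higher than after, 175 to 201 lower than after and 141 to 167 highest in the arc, since the rule then asks for 1 culture only. The detection filter, the rescaling, the weighting by UMIs and the removal of cells with *Dcx* left each count within 1.5 times, with 3 higher than after in place of 2 under each of the last 3. Of 936 values for 52 named genes under the settings that keep both cultures, 649 moved by less than the spread between cultures, 285 moved by more and 2 reversed. The cause was not tested. Arcs were compared within each culture throughout. The depth of single cells limits genes detected in few cells, such as *Cdc6*.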

Other observations

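The values of some genes outside the replication lists, chosen after their values were seen apart from *Ezh2* and *Srsf7*, follow. *Smc2* and *Smc6*, which organise and repair chromosomes, were higher than in the preceding arc by 0.28 and 0.26 in *Smc2* and by 0.28 and 0.26 in *Smc6*, and *Smc2* was lower than in the following arc by differences of -0.49 and -0.57. *Tubb5*, a beta tubulin, was higher by 0.36 and 0.28, and *Tmpo*, a protein of the nuclear lamina, by 0.29 and 0.23. *Ezh2*, the methyltransferase of histone H3 in Polycomb complex 2, was at 0.62, 1.08 and 1.64 in the successive arcs of culture 1 and at 0.69, 1.08 and 1.59 in culture 2. The splicing factor *Srsf7* was at 1.71, 2.06 and 2.48, and at 1.73, 2.10 and 2.52. *Lgals1*, which encodes galectin 1, was lower than in the preceding arc by differences of -0.50 and -0.22, and its difference from the following arc was -0.51 in culture 1 and -0.01 in culture 2.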
